A study of Mus musculus with 12 samples.

Results

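Heat shock proteins and chaperones, the proteins that fold, hold and refold other proteins, were followed in regulatory T cells (Treg) sorted from mouse tumours and spleens. Members were taken by gene name from the scanner files: names beginning with Hsp followed by a, b, d, e, h or a number, with Dnaj, with Hsf, with Bag followed by a number or with Cct followed by a number, and Tcp1. The rule uses no measured difference. It took 83 genes, each represented by its brightest probe, and 75 of them were well above background on 3 or more arrays and entered the fit, among 15555 features tested in all. The other 8, Dnajb3, Dnajb7, Dnajc5b, Dnajc5g, Hsf2bp, Hsfy2, Hspb2 and Hspb3, were well above background on 0 to 2 of 12 arrays and are not described further.

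The study compared Treg that do or do not express interleukin-10 in a tumour, with total tumour Treg and spleen Treg beside them. All mice were C57BL/6 and carried a fluorescent reporter. VERT-X mice report the Il10 gene with EGFP, and their tumour Treg were sorted as IL10+ or IL10-. FoxP3-EGFP mice report Foxp3, the transcription factor that defines Treg, and gave total Treg from tumours and from the spleens of tumour-free mice. The tumour was MC38, a colon carcinoma line of the same strain, which had grown under the skin for 2 weeks. Tumours were pooled and digested before sorting, whereas the labels mention no digestion of spleens, so tissue and handling cannot be told apart. The sort took CD4+ CD3+ cells that were CD45+ with low CD11b, and within them EGFP+ cells in FoxP3-EGFP mice or CD25+ cells with CD120b at any level down to low in VERT-X mice. The IL10+ and IL10- groups therefore differ from total tumour Treg in reporter strain and sort as well. Each of the 4 groups had 3 arrays, and p-values measure the spread between these arrays. The ages and numbers of the animals are not given in the sources used here.

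Cells answer misfolded protein with heat shock factor 1 (Hsf1), which binds heat shock elements in promoters and induces HSP70, HSP90, HSP110, small heat shock proteins and their partners. HSP70 proteins bind exposed hydrophobic stretches and are driven by J-domain proteins (DNAJ) and by nucleotide exchange factors (HSP110 and BAG proteins), while HSP90 matures kinases and receptors and the CCT ring folds actin and tubulin. Unfolded protein in the endoplasmic reticulum (ER) is met by a separate response, which induces Hspa5 (BiP) and Hsp90b1 (GRP94) through ER stress elements.

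Promoter sequences are shown for some stress-responsive members, only where the search described here found a match. They come from RefSeq windows on GRCm38.p6, which matched 68 of the 83 members, and only the 250 bases before the start were searched, on both strands. Capitals mark GAANNTTC or TTCNNGAA, paired units of the heat shock element, where overlapping matches run together, and each stretch reads 5′ to 3′ on the gene's strand.
Hspa1a (chr17:34972238-34972275, minus strand): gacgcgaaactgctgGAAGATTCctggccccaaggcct
Hspa1b (chr17:34959320-34959357, minus strand): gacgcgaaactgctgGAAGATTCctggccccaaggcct
Hspb1 (chr5:135887787-135887844, plus strand): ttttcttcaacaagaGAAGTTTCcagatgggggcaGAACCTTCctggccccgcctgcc
Hsph1 (chr5:149636347-149636384, minus strand): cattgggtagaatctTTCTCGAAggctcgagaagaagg
Hspe1 (chr1:55088044-55088091, plus strand): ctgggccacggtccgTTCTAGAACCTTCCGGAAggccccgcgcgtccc
The stretches of Hspa1a and Hspa1b are letter for letter the same, and the stretch of Hspe1 lies between the starts of Hspe1 and Hspd1, which are transcribed in opposite directions. One or other pair was found in 8 of 11 heat-inducible members with a window (72.7%), in 15 of the 68 members (22.1%) and in 3932 of 27025 genes of the whole table (14.5%). The heat-inducible list was made of known Hsf1 targets, so a high share is built into it. Hspa1a and Hspa1b were counted apart in it, as were Hspd1 and Hspe1. It was present in 6 of 19 members that were higher in total tumour Treg (31.6%) and in 8 of 43 other tested members (18.6%). No pair was found in the windows of Hspb8 and Bag3, which are therefore not printed. A match is a description of these letters and not a binding site.

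For the ER members, capitals mark the ER stress element, CCAAT and CCACG with 9 bases of any kind between them, on either strand.
Hspa5 (chr2:34772010-34772058, plus strand): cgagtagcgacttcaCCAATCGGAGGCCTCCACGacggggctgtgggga
Hsp90b1 (chr10:86705518-86705671, minus strand): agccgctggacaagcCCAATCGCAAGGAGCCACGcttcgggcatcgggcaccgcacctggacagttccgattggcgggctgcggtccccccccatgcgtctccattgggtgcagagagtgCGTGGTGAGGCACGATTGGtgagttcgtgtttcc
Hsp90b1 holds the element 2 times, on opposite strands. The element occurred in 3 of the 68 members with a window (Hspa5, Hsp90b1 and Dnajc3), or 4.41%, and in 35 of 27025 genes of the table (0.13%).

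Levels are given as log2 of the processed signal minus the 75th percentile of the array, and they are read only within a probe. Between 42.2% and 65.4% of probes were well above background per array, and the 75th percentile of the signal ranged from 98.9 to 645. In bulk RNA of this kind, fewer cells of a type and less RNA per cell cannot be told apart. Of 6 T cell markers, 0 were called between total tumour and spleen (limma; 0 at an unadjusted p under 0.05). Of the markers of other cells, 9 of 9 fibroblast markers and 10 of 12 macrophage markers were higher in total tumour Treg, with medians of 5.67 and 2.23 on the log2 scale, and 8 of 8 B cell markers were lower (median -6.52), although the gate would remove these cells. Of 3 epithelial tumour cell markers tested, 2 were higher (median 0.94). Of 7 CD8 T and NK cell markers, 1 was higher and 3 were lower (median -1.16). The median fibroblast level was 2.81 to 3.12 on the total tumour arrays and -5.36 to -2.18 on the spleen arrays, that of macrophage markers 2.70 to 3.85 and 0.81 to 2.10, and that of B cell markers -6.80 to -5.21 and 1.57 to 2.54. Their part in the differences below was not tested. The Foxp3 probe read -6.62 to -5.83 on all 6 arrays of FoxP3-EGFP mice, total tumour and spleen alike, and 2.55 to 4.57 on the VERT-X arrays, so it does not check the sort in FoxP3-EGFP mice. Of 9 Treg markers, Foxp3 among them, 3 were higher in total tumour and 1 was lower (median difference 1.29). Their median level was -0.94 on spleen replicate 2, against 3.07 and 3.25 on the other spleen arrays and 2.46 to 2.73 in total tumour. The arrays numbered 1 of the IL10+ and IL10- groups stood apart from the other 2 of their group for several members, as described with those members.

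Levels of most heat-inducible chaperones were higher in the total tumour Treg samples than in the spleen Treg samples. The markers of other cells described above differed between the same samples, and their part was not tested. Of the 75 members, 22 were higher in total tumour and 4 were lower (limma, adjusted p under 0.05), while 20.6% of all features tested were higher and 22.4% lower (43.0% in all). The median difference was 0.27 over the members and -0.07 over all features. By group, 8 of 13 HSP70 and HSP110 members, 3 of 3 HSP90 members and 10 of 13 heat-inducible members were higher and none of these was lower. The heat-inducible members were Hspa1a, Hspa1b, Hspa4l, Hspa8, Hsph1, Hsp90aa1, Hspb1, Hspd1, Hspe1, Dnajb1, Dnajb4, Dnaja1 and Bag3. Among them, Hspa8, Hspe1 and Dnaja1 were not called. No member of the CCT ring (0 of 9), the DNAJA group (0 of 4) or the heat shock factors (0 of 3 tested) was called, though 2, 2 and 1 of them had an unadjusted p under 0.05.

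**Figure D1:**
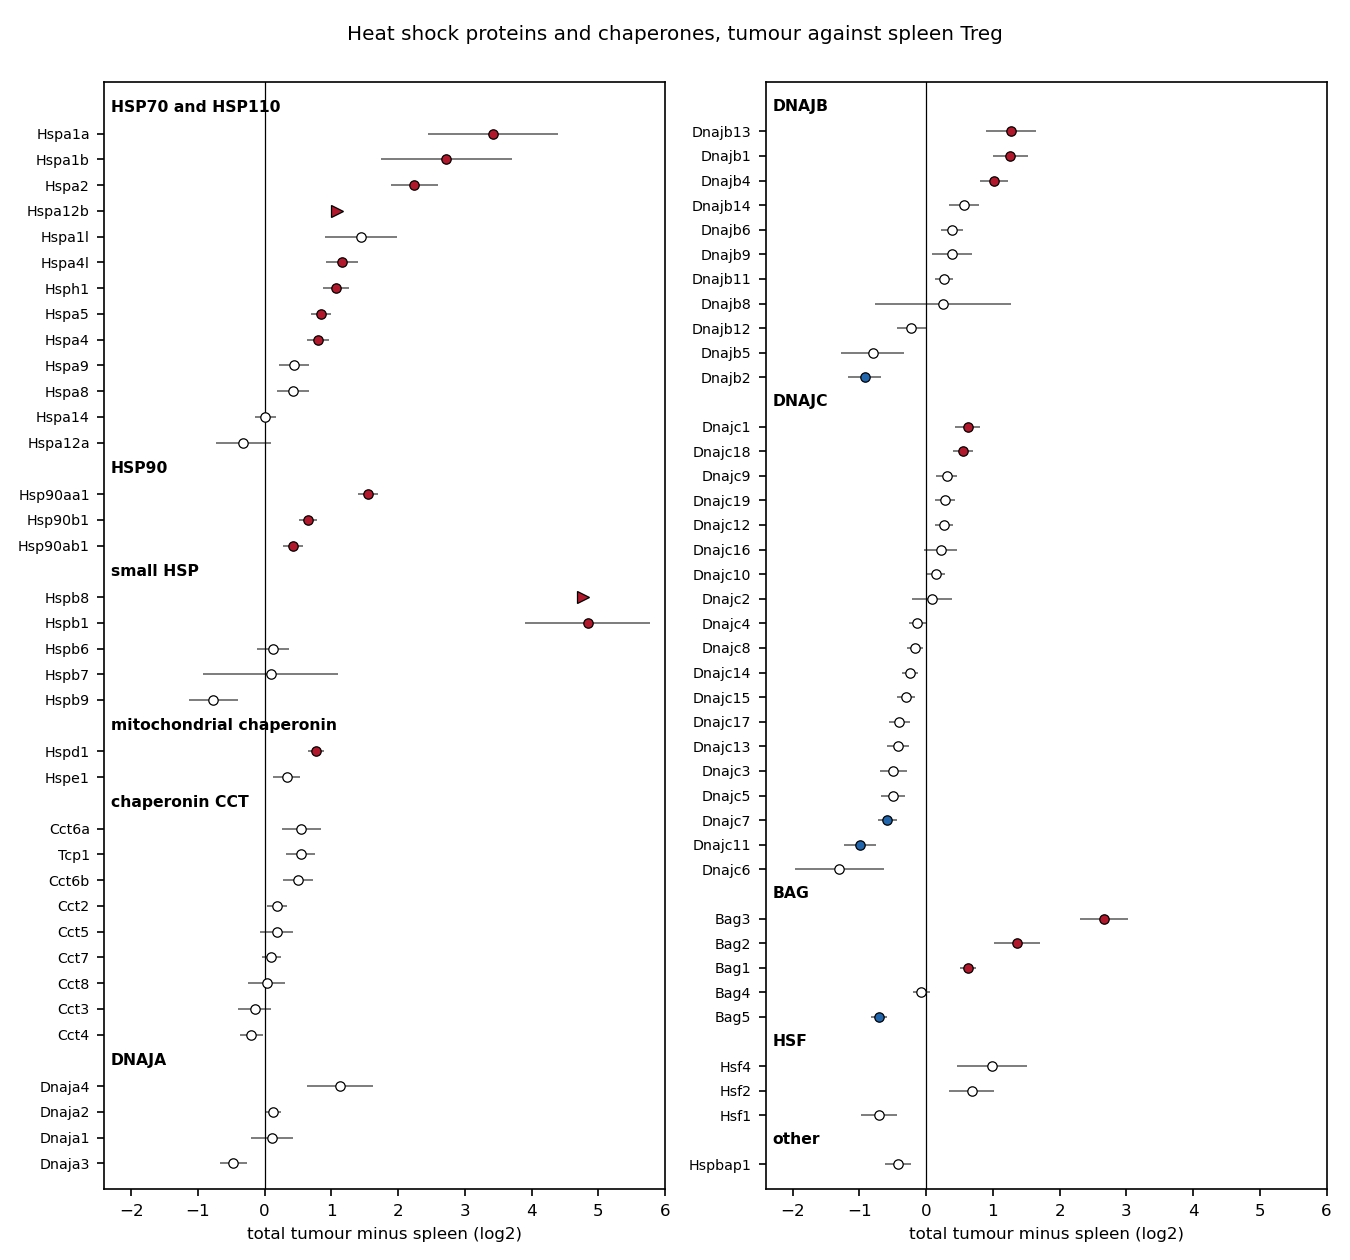
Difference between total tumour and spleen Treg for each of the 75 members, by family, on the log2 scale. Points are differences of the means of 3 arrays a group with the standard error of the fit, filled red (higher) or blue (lower) where called at an adjusted p under 0.05, and arrowheads mark the lower bounds of Hspb8 and Hspa12b, while the points of Hspa1l (not well above background in spleen), Dnajb8 and Hspb7 (in neither tissue) are no measure of size. HSP70, HSP90 and BAG members lie mostly to the right of 0, whereas the CCT ring lies near 0.

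Hspa1a and Hspa1b encode the stress-induced HSP70 and were among the largest rises. Their copies are nearly identical, so the signal of their probes (Hspa1a at chr17:34577877-34577936 and Hspa1b at chr17:34565311-34565370 of mm8) may come from either gene. Hspa1a read 8.25, 8.23 and 7.87 on the total tumour arrays and 4.94, 5.34 and 3.80 on the spleen arrays. The groups do not overlap, and the difference was 3.42 ± 0.98 (SE, n = 3 per group, limma adjusted p = 0.0185). Hspa1b read 8.61, 8.48 and 8.20 in total tumour and 5.88, 6.37 and 4.88 in spleen, which again do not overlap and differ by 2.72 ± 0.98 (limma adjusted p = 0.0472). A further probe of Hspa1a gave 3.52 and one of Hspa1b 2.43, the latter at an adjusted p of 0.118 in the fit of all probes. Without total tumour replicate 1 or 2 or spleen replicate 3, the adjusted p of Hspa1a was 0.0526, 0.0529 and 0.0654, and Hspa1b lost its call in 15 of 27 alternatives, the removal of any one total tumour or spleen array among them (0.0642 to 0.141). The standard error is shared by all 4 groups and includes the IL10+ and IL10- arrays numbered 1. Without those 2 arrays, a setting added after seeing the data, it was 0.35 for both genes and the adjusted p was 1.8e-04 and 5.2e-04.

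Of the other HSP70 and HSP110 members, Hspa2, a testis-rich HSP70, read 0.22, -0.06 and -0.14 in total tumour and -1.65, -3.21 and -1.82 in spleen, a difference of 2.24 ± 0.35 (limma adjusted p = 0.00075) that kept its call in every setting run, spleen replicate 2 left out included. Hspa12b, an atypical member, was not well above background in spleen (mean level -5.12) and was at least 2.11-fold higher in total tumour (mean -3.02, limma adjusted p = 0.0267), a call lost without total tumour replicate 1 or 2 or spleen replicate 3 (adjusted p 0.0546, 0.0941 and 0.0786). Hsph1, the inducible HSP110 that exchanges nucleotide on HSP70, read 5.31, 5.81 and 5.26 against 4.23, 4.71 and 4.23 and rose by 1.07 ± 0.19 (limma adjusted p = 0.0017). Hspa4 and Hspa4l, also of the HSP110 kind, differed by 0.80 and 1.16, and of the further Hspa4l probes 2 were called (1.03 and 1.20) and 1 was not (0.46). For Hspa4, a further probe gave -0.65 and another 0.64, and the mean over its probes ended the call (0.26, adjusted p 0.276). The constitutive cytosolic Hspa8, which is also counted among the heat-inducible members, was not called: it read 7.68, 7.66 and 7.37 in total tumour and 6.95, 7.54 and 6.95 in spleen, groups that overlap (difference 0.42 ± 0.24, limma adjusted p = 0.193). Mitochondrial Hspa9 (0.44), Hspa14 (0.01) and Hspa12a (-0.32) were not called either. Nor was Hspa1l, which was well above background on 2 of 3 total tumour arrays and on no spleen array, so that no fold is given (mean levels -4.73 and -6.17, limma adjusted p = 0.0528).

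All 3 HSP90 members were higher in total tumour Treg, the inducible cytosolic form by most. Hsp90aa1 (probe at chr12:111138851-111138910 of mm8) read 6.69, 6.92 and 6.50 in total tumour and 5.09, 5.30 and 5.06 in spleen. The groups do not overlap, and the difference was 1.55 ± 0.15 (limma adjusted p = 4.3e-05), a call lost in 1 of 27 alternatives, normexp background correction (1.35, adjusted p 0.144). The constitutive Hsp90ab1 read 7.84, 7.83 and 7.78 against 7.32, 7.64 and 7.18. Its difference was 0.43 ± 0.15 (limma adjusted p = 0.04), and the call was lost in 14 of 27 alternatives, any one total tumour array left out among them (adjusted p 0.0805 to 0.103). A further probe gave 0.38 without a call.

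Of the small heat shock proteins, which hold unfolded protein without ATP, Hspb1 and Hspb8 rose steeply and the other 3 tested were not called. Hspb8 (probe at chr5:116670053-116670112 of mm8) read 0.15, 1.10 and 0.79 in total tumour. In spleen it read -6.37, -6.08 and -6.68 and was not well above background on any array. It was at least 27.4-fold higher in total tumour (means 0.68 and -6.38, limma adjusted p = 8.4e-06). Hspb1 (HSP27; probe at chr5:136173684-136173871) read 5.61, 5.99 and 4.87 in total tumour and 1.81, -0.12 and 0.24 in spleen, with replicate 1 the highest of the spleen arrays, and differed by 4.84 ± 0.94 (limma adjusted p = 0.00256). Bag3, which couples Hspb8 and HSP70 and is a target of Hsf1, read 3.50, 3.36 and 2.06 in total tumour and 0.37, -0.11 and 0.70 in spleen, with replicate 3 the lowest of the tumour arrays. The difference was 2.66 ± 0.36 (limma adjusted p = 0.00034), and a further probe gave 2.69. Hspb1, Hspb8, Bag3 and Hspa2 were the 4 of the 26 called members that kept their call in all of the alternatives in which they were measured. The fibroblast markers were also higher in total tumour, Col1a1 going from between -4.51 and -1.64 to between 1.47 and 1.87. Whether fibroblasts had a part in the levels of Hspb8 or Hspb1 was not tested. On the VERT-X arrays numbered 1, described below, Hspb8 was higher and Hspb1 lower than on the other VERT-X arrays.

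The J-domain proteins were mixed. Dnajb1 (HSP40), the inducible partner of HSP70, read 6.04, 6.20 and 5.17 in total tumour and 4.33, 4.63 and 4.68 in spleen, a difference of 1.26 ± 0.26 (limma adjusted p = 0.00332). Its second probe gave 2.32. Dnajb4, another inducible form, differed by 1.02 ± 0.21 (limma adjusted p = 0.0031), and Dnajb13 by 1.27 ± 0.37 (limma adjusted p = 0.0195), a call lost without total tumour replicate 1 or 3. In the DNAJC group, Dnajc1 of the ER and Dnajc18 were higher by 0.62 and 0.55, and each lost its call without total tumour replicate 1 or 3, Dnajc1 also without spleen replicate 1 or 2 and Dnajc18 without spleen replicate 3. Dnajc7, which binds both HSP70 and HSP90, was lower: it read 2.16, 2.16 and 2.38 in total tumour and 2.75, 2.97 and 2.74 in spleen (difference -0.58 ± 0.14, limma adjusted p = 0.00673). Dnajb2 (named Dnajb10 in the files), a J-domain protein enriched in neurons, was lower by -0.92 ± 0.25 (limma adjusted p = 0.0132). Mitochondrial Dnajc11 was lower by its brightest probe (-0.99 ± 0.24, limma adjusted p = 0.00839), but its further probe gave 0.64 and the mean over both ended the call (-0.17, adjusted p 0.638). Dnaja1, Dnaja2 and Dnaja3, the general cytosolic and mitochondrial J-domain partners, differed by 0.11, 0.12 and -0.47 and were not called. In the fit of all probes, further probes of several members differed from the brightest one in their call. Further probes of Dnaja3 (-0.60, limma adjusted p = 0.0308), Dnaja4 (1.76, limma adjusted p = 0.00642) and Dnajc9 (0.52, limma adjusted p = 0.0251) were called, and the mean over the Dnaja4 probes was called as well (adjusted p 0.023). For Dnajc5 one further probe was higher (1.08) and another lower (-0.51), and for Dnajc16 a pair of further probes was lower (-1.91 and -1.39), where the brightest gave 0.22 and another 0.79, neither called. Further probes of Dnajc1 (0.73 and 0.43) and Dnajc18 (0.48) were not called. Over all 19 DNAJC members tested the median difference was -0.17, and over 11 DNAJB members it was 0.39.

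Among the BAG proteins, nucleotide exchange factors of HSP70, Bag3, Bag2 and Bag1 were higher and Bag5 was lower. Bag1 read 4.09, 4.04 and 4.02 in total tumour and 3.41, 3.45 and 3.39 in spleen, a difference of 0.63. Bag2, which inhibits degradation of HSP70 clients, read -0.87, -0.10 and -0.42 against -1.69, -1.80 and -1.98, a difference of 1.36. Bag5 read 1.21, 1.11 and 1.22 against 1.75, 2.03 and 1.87, and fell by 0.71 on the log2 scale (limma adjusted p = 0.00123). None of these groups overlap.

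**Figure D2:**
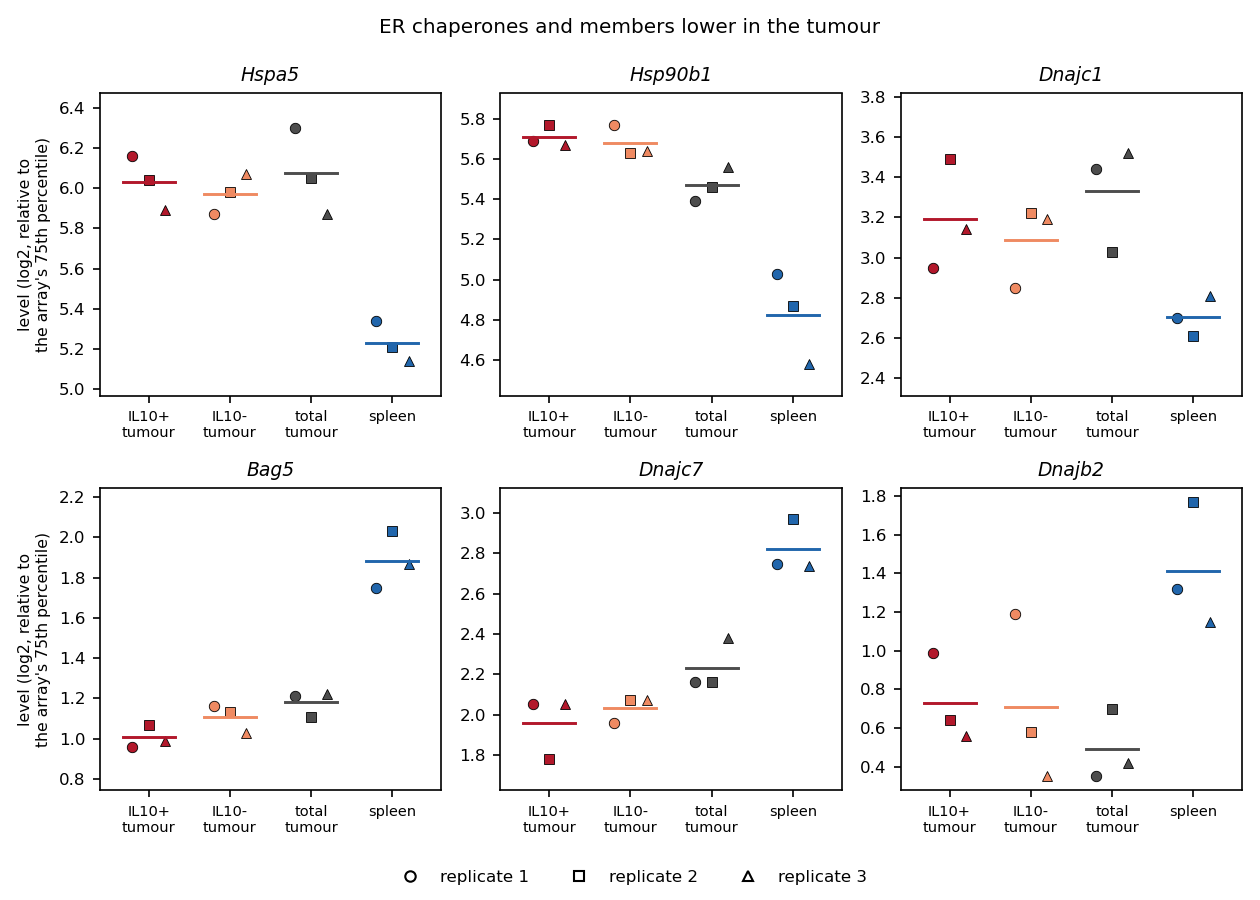
Levels of 3 ER chaperones (Hspa5, Hsp90b1, Dnajc1) and 3 members lower in the tumour (Bag5, Dnajc7, Dnajb2) on each of the 12 arrays, as log2 signal relative to the array's 75th percentile. Symbols give the replicate number and lines the group means. The spleen arrays lie below all tumour arrays for Hspa5 and Hsp90b1 and above all total tumour arrays for Bag5, Dnajc7 and Dnajb2.

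Of 9 ER members, 3 were higher in total tumour Treg and none lower. Hspa5 (probe at chr2:34598119-34598178 of mm8), the main ER HSP70, read 6.30, 6.05 and 5.87 in total tumour and 5.34, 5.21 and 5.14 in spleen, a difference of 0.84 ± 0.15 (limma adjusted p = 0.00139). Hsp90b1, the ER HSP90, read 5.39, 5.46 and 5.56 against 5.03, 4.87 and 4.58, a difference of 0.65 ± 0.14 (limma adjusted p = 0.00454). For both, the 6 arrays of the IL10+ and IL10- groups also lay above all 3 spleen arrays, at 5.87 to 6.16 for Hspa5 and 5.63 to 5.77 for Hsp90b1. Dnajb9, which turns the ER stress sensor Ern1 off, was not called (0.39 ± 0.30, limma adjusted p = 0.33), and Dnajc3, which holds an ER stress element as well, was not called by its brightest probe (-0.49, limma adjusted p = 0.0719) but was lower by 2 of 3 further ones (-0.88 and -0.58, limma adjusted p = 0.0202 and 0.0432), the other giving -0.25. Among 23 other genes of ER folding and the unfolded protein response, 7 were higher and 1 was lower, with a median of 0.37. Those with the smallest p were Ern1 itself (2.85 ± 0.30, limma adjusted p = 6.6e-05), the lectin chaperone Canx (0.98 ± 0.17, limma adjusted p = 0.00137) and the transcription factor Atf4 (1.02 ± 0.19, limma adjusted p = 0.00218).

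The mitochondrial chaperonin was split. Hspd1 (HSP60) read 5.48, 5.68 and 5.51 in total tumour and 4.73, 4.91 and 4.72 in spleen, and rose by 0.77 ± 0.12 (limma adjusted p = 0.00064). Its lid Hspe1 (HSP10), from the other side of the same promoter, read 4.76, 4.97 and 4.44 against 4.34, 4.63 and 4.22, groups that overlap, and was not called (0.33 ± 0.20, limma adjusted p = 0.21). The 9 CCT subunits ranged from -0.20 (Cct4) to 0.55 (Cct6a), with a median of 0.18, and Tcp1 differed by 0.54 ± 0.22 (limma adjusted p = 0.0707). Prefoldin, which hands actin and tubulin to CCT, had 0 of 6 subunits called and 3 with an unadjusted p under 0.05 (limma).

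Of the heat shock factors, Hsf1 read 2.21, 2.44 and 2.42 in total tumour and 3.07, 3.15 and 2.94 in spleen, levels that do not overlap, but the difference was not called (-0.70 ± 0.27, limma adjusted p = 0.0623). It passed the threshold in 8 of 27 alternatives, IL10+ replicate 1 or IL10- replicate 1 left out among them (adjusted p 0.0255 and 0.0327). A further Hsf1 probe gave -0.69 (limma adjusted p = 0.038 in the fit of all probes). Hsf2 differed by 0.68 (limma adjusted p = 0.12), but its further probe gave 1.78 (limma adjusted p = 0.00436) and the mean over its probes was called (adjusted p 0.00736). Hsf4 had 1 probe, well above background on 10 of 12 arrays but on only 1 of 3 spleen arrays, and differed by 0.99 (limma adjusted p = 0.152). Of 16 HSP90 co-chaperones, 1 was higher and 3 were lower: Tomm34 (-0.87), Chordc1 (-0.73) and Ahsa2 (-0.76) fell and Aarsd1 rose by 0.66. Of 14 immediate early genes, 6 were higher and 2 lower, and those with the smallest p were Ier3 (1.31 to 2.06 in total tumour and -5.63 to -3.90 in spleen), Atf3 (5.10 ± 0.47, limma adjusted p = 3.4e-05) and Btg2, which fell by 1.07 on the log2 scale. These lists were chosen with earlier results of these data known.

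The count of calls between tissues depended on the processing. It was 26 in the fit described and 5 after normexp background correction, 11 with scaling to each array's median, 10 with slide as a fixed block and 41 with only these 2 groups in the fit. The share of all features called moved as well, from 43.0% to 12.4%, 25.8%, 22.3% and 53.9% in the same order. Each of the 26 kept its sign in every alternative that measured it (23 of them where probes had to be well above background on all arrays). On the 1 slide that held both tissues (1 total tumour and 3 spleen arrays, which also entered the fit), all 26 kept their sign. Medians were 1.07 for those higher and -0.79 for those lower, against 1.21 and -0.81 in the whole fit. Of the called heat-inducible members, all but Hspa4l (1.28 against 1.16) differed by less there. Dnajb1 gave 0.62 against 1.26, Dnajb4 0.59 against 1.02 and Bag3 1.75 against 2.66. With slide as a fixed block, Hspa1a, Hspa1b, Hsph1, Dnajb1 and Dnajb4 were not called, while Hspa4l, Hsp90aa1, Hspb1, Hspd1 and Bag3 were.

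Within VERT-X tumours, 5 members were more than 1 log2 unit below both other arrays of their group on IL10+ replicate 1 and on IL10- replicate 1 alike. The share of all features that did so on both arrays was not counted, so whether the members stand out in this is not known. These were Hspa1a, Hspa1b, Hspb1, Dnaja4 and Hsf4, named after their values were seen. Hspa1a read 4.74, 7.72 and 7.77 on the IL10+ arrays and 4.54, 7.81 and 7.69 on the IL10- arrays. Hspa1b read 5.47, 8.38 and 8.67 and then 5.21, 8.55 and 8.22, and Hspb1 read 2.06, 4.88 and 4.71 and then 1.92, 4.87 and 4.59. For these 3 genes both arrays numbered 1 lay within the range of the spleen arrays or just above it, while the other 4 VERT-X arrays lay within the range of the total tumour arrays or just under it, except Hspa1b on IL10+ replicate 3 (8.67), which lay just above it (8.61). Dnaja4, a cytosolic J-domain protein, read 0.06, 1.80 and 1.57 in IL10+ and 0.35, 1.80 and 1.65 in IL10-, against 1.11, 0.59 and 1.06 in spleen. Hsf1 showed the same split by number and in the same direction (2.37, 3.26 and 3.14 in IL10+, 2.47, 3.34 and 3.14 in IL10-), but here the arrays numbered 1 lay nearer to total tumour (2.21 to 2.44) than to spleen (2.94 to 3.15). Hspb8 ran the other way, at 2.08, 0.71 and 1.13 in IL10+ and 2.04, 0.19 and 0.37 in IL10-.

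**Figure D3:**
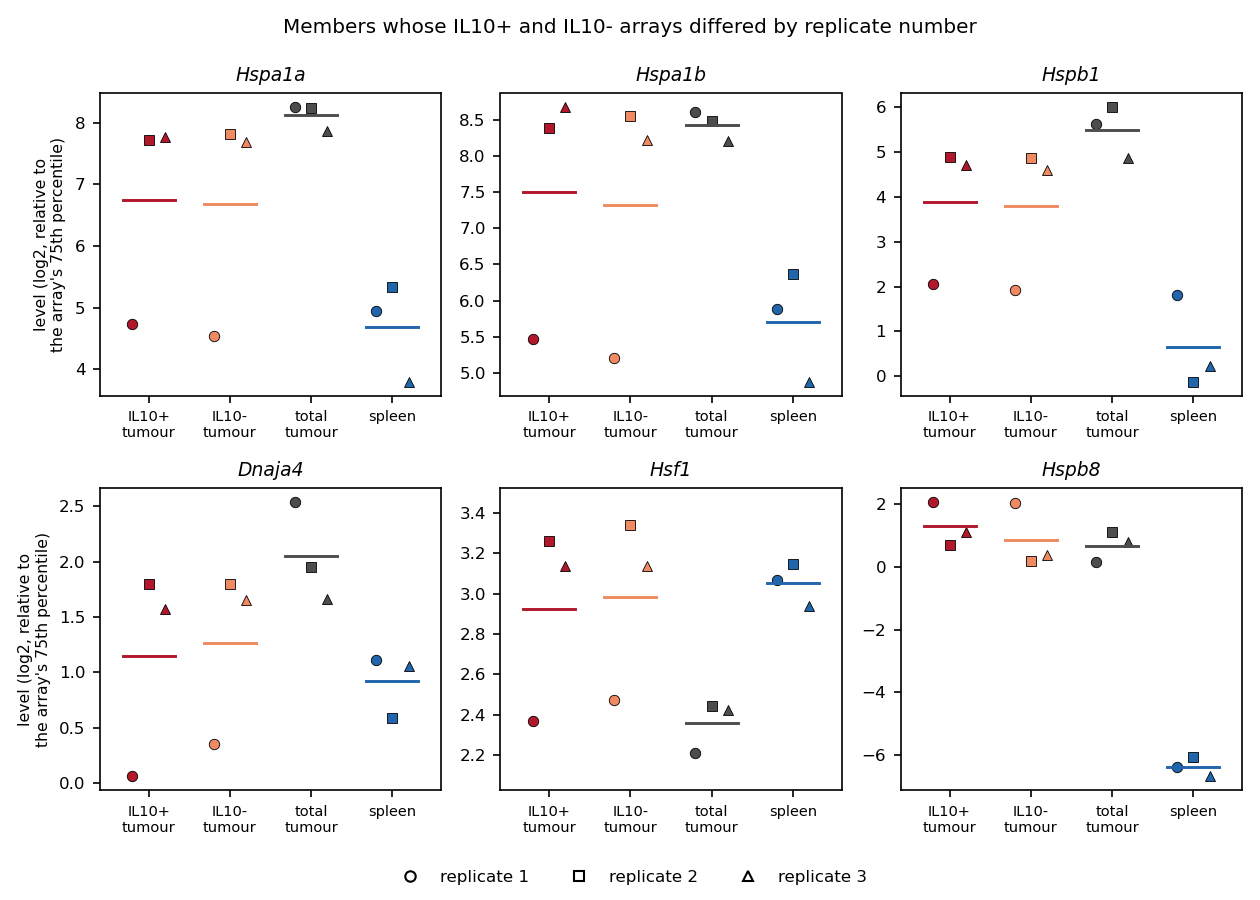
Levels of Hspa1a, Hspa1b, Hspb1, Dnaja4, Hsf1 and Hspb8 on each of the 12 arrays, as log2 signal relative to the array's 75th percentile. Symbols give the replicate number and lines the group means. The arrays numbered 1 of the IL10+ and IL10- groups lie together, below the other 4 VERT-X arrays in all panels except that of Hspb8.

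The 2 arrays lie on different slides and in different scan sessions. IL10+ replicate 1 was below both others of its group by more than 1 log2 unit for 9 members and for 9.35% of all features, and IL10- replicate 1 for 6 members and 5.43% of all features, whereas each total tumour array was so for 0 or 1 member and at most 1.29% of features. Over all features other arrays stood apart as far: spleen replicate 2 was below its group for 5.82% of features and 2 members, and IL10+ replicate 3 above its group for 8.27% of features and 1 member. Other genes split in the same way. Cd3e read 1.64 on IL10+ replicate 1 and 1.97 on IL10- replicate 1, against 4.70 to 5.78 on the other 4 VERT-X arrays, and Cd4 read -0.26 and 0.14 against 2.08 to 2.75. The median of the 6 T cell markers was 5.22 and 5.37 against 5.88 to 6.22, and that of the fibroblast markers 4.11 and 3.52 against 0.80 to 3.53. The part of these in the levels of the chaperones was not tested.

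Between IL10+ and IL10- Treg, none of the 75 members was called (limma, adjusted p under 0.05; 1 had an unadjusted p under 0.05), 0.0514% of all features were, and the count was 0 in all 27 alternatives. The median difference was -0.05 over the members and -0.04 over all features, and after normexp background correction it was -0.88 over the members and 0.00 over all features. Of the heat-inducible members, Hspa1a differed by 0.06 ± 0.98, Hspa1b by 0.18 ± 0.98 and Hspb1 by 0.09 ± 0.94 (limma adjusted p 1 for each), with standard errors that hold the split by number. Hsp90aa1, Dnajb1, Hsph1 and Bag3 differed by 0.08, 0.10, 0.18 and 0.44. The member with the smallest p was Dnajc12, a J-domain protein that assists aromatic amino acid hydroxylases. It read -0.07, 0.21 and -0.09 in IL10+, 0.96, 1.0 and 0.70 in IL10-, 0.30, 0.28 and 0.21 in total tumour and 0.12, -0.12 and -0.03 in spleen. All 3 IL10- arrays lie above every other array, yet the difference of -0.87 ± 0.14 had a limma adjusted p of 0.129. Dnajc15 and Dnajc18 had the next smallest p without being called. Macrophage markers were higher in IL10+ than in IL10- Treg for 12 of 12 (median 0.41), with none called.

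Against total tumour Treg, both VERT-X fractions had lower levels of most heat-inducible members, but no member was called. The total tumour arrays are shared by both comparisons, and strain and sort differ as well. Of the VERT-X arrays, only IL10+ replicate 1 shared a slide or scan session with total tumour arrays. For the IL10- arrays and IL10+ replicates 2 and 3, slide and session therefore cannot be told apart from strain and sort. Of the 75 members, 0 were called in IL10+ (12 at an unadjusted p under 0.05, limma) and 0 in IL10- Treg (16), while 0.180% and 0.0514% of all features were called. Of 13 heat-inducible members, 12 lay below total tumour in IL10+ Treg, with a median of -0.60 (all features -0.03), and 13 in IL10- Treg, with a median of -0.79 (all features 0.02). The lowest were Hspb1, Hspa1a and Hspa1b, at -1.61, -1.37 and -0.92 in IL10+ and at -1.69, -1.43 and -1.11 in IL10- Treg, where the arrays numbered 1 are the lowest. Without those 2 arrays the medians were -0.46 and -0.48.

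Hsp90aa1 came nearest to a call. It read 5.71, 5.97 and 5.77 in IL10+ and 5.65, 5.74 and 5.83 in IL10- Treg, between the spleen arrays (at most 5.30) and the total tumour arrays (at least 6.50) with no overlap on either side. Its difference from total tumour was -0.89 ± 0.15 in IL10+ (limma adjusted p = 0.0611) and -0.96 ± 0.15 in IL10- Treg (limma adjusted p = 0.0521), and it did not split by number. It passed the threshold in IL10+ Treg without IL10+ replicate 1 (adjusted p 0.0376) and in IL10- Treg without IL10+ replicate 1 or 3 or spleen replicate 2 (0.0304, 0.0439 and 0.0435). Dnajb1 read 4.66, 5.01 and 5.06 in IL10+ and 4.65, 4.91 and 4.88 in IL10- Treg, under all 3 total tumour arrays (-0.90 and -0.99, limma adjusted p = 0.148 and 0.127). Hspe1 read 4.24, 3.65 and 4.03 and then 4.02, 3.81 and 3.98, also under all total tumour arrays (-0.75 and -0.79, limma adjusted p = 0.126 and 0.118) and, all but 1 array, under the spleen arrays. Hsph1 differed by -0.50 and -0.68, and Bag3 by -0.60 and -1.04, though a further probe of Bag3 gave 0.26 and 0.27. Of the ER chaperones, Hspa5 differed by -0.04 and -0.10, and Hsp90b1 by 0.24 and 0.21.

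**Figure D4:**
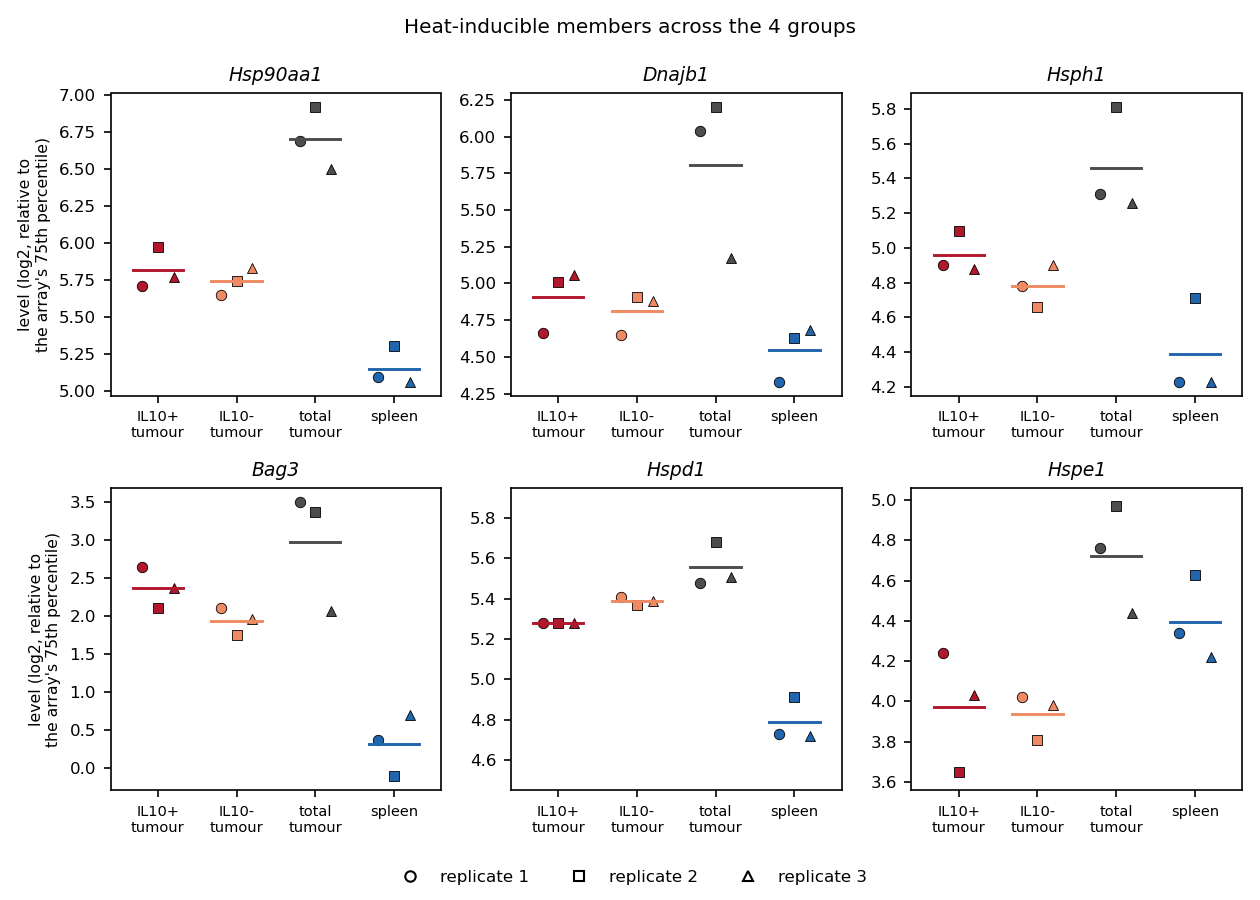
Levels of Hsp90aa1, Dnajb1, Hsph1, Bag3, Hspd1 and Hspe1 on each of the 12 arrays, as log2 signal relative to the array's 75th percentile. Symbols give the replicate number and lines the group means. For Hsp90aa1 the 6 VERT-X arrays lie between spleen and total tumour, and for Hspe1 their means lie below both.

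Leaving out both arrays numbered 1, a setting added after seeing the data, called 9 of 75 members in IL10+ and 5 in IL10- against total tumour Treg, when 11.5% and 8.22% of all features were called. Shared by both were Hsp90aa1 (-0.83 and -0.92) and Hspe1 (-0.88 and -0.83), which were lower than in total tumour, and Hsf1 (0.85 and 0.88), Dnajc2 (0.77 and 0.99) and Hsf4 (2.41 and 2.09), which were higher. Dnajc2 is a ribosome-bound J-domain protein. In that setting IL10+ and IL10- Treg still had 0 called members, and no VERT-X array shared a slide or scan session with a total tumour array. On slide 1, IL10+ replicate 1 differed from 2 total tumour arrays by -1.09 for Hsp90aa1 and -0.62 for Hspe1. There Hsf1 differed by 0.05, Dnajc2 by -0.19 and Hsf4 by 0.64. In the fit of all probes on all 12 arrays, a further Dnajc2 probe gave -0.34 in IL10+ and -0.20 in IL10- Treg, neither called.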

How the data were processed

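Per the file headers, the authors' scanner files hold spot intensity from version 9.5.3.1 of Agilent's Feature Extraction: the processed intensity is background-subtracted and corrected within an array, with no scaling between arrays, and probes are annotated on mm8. Mean and local background intensity, per the file headers, served in 1 alternative, and the deposited value table, on a log10 scale (Pearson r with log10 processed intensity at least 0.995 per array), in another; how it was normalized is not stated. The labels speak of biotin, whereas the headers describe a 1-channel scan.

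Control spots and spots marked as outliers were left out (1 member value, Cct3 on IL10+ replicate 3), and spots of a probe were averaged, which gave 41174 probes. Other genes were named through RefSeq tables (GRCm38.p6). The level was log2 of the processed intensity deposited by the authors minus the array's 75th percentile. All 12 arrays were fitted in R 4.3.3 by limma 3.58.1, with lmFit, eBayes and two-sided p-values, over 15555 features, with Benjamini-Hochberg adjustment within a comparison and calls at an adjusted p under 0.05. The steps were tested on simulated data. A probe not well above background in a whole group gives a lower bound for a fold. Motifs were searched in Python 3.11.15.

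Members to be named were 19 core chaperones, the 8 largest rises and 8 largest falls among called members whose groups do not overlap (3 and 3 against total tumour), the 2 members of each family with the smallest p between tissues and, where none was called, the 3 with the smallest p. All 19 core chaperones are given between tissues, but only some of them in the other comparisons. Cct6b and Hspbap1, due by family, are not given, nor is Dnajc12 in IL10- against total tumour Treg. Others were named after their values were seen. Members, families and lists were chosen with earlier results of these data known.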

Additional observations from a re-analysis of the deposited data

How the results depend on the processing

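For total tumour against spleen Treg, 26 members were called; normexp background correction gave 5, scaling to the array median 11, slide as a fixed block 10 and only the 2 groups compared 41, when 43.0% of all features were called and then 12.4%, 25.8%, 22.3% and 53.9%. Leaving out 1 array gave 19 to 32 members. For IL10+ against total tumour Treg, 0 were called; requiring probes well above background on all arrays gave 1, leaving out 1 array 0 to 3 and leaving out both arrays numbered 1 gave 9. For IL10- against total tumour Treg, 0 were called; the percentile over probes detected on all arrays gave 1, probes well above background on all arrays 1, leaving out 1 array 0 to 1 and both arrays numbered 1 left out 5. The median difference of members under normexp was -0.88 for IL10+ against IL10-, -0.72 for IL10+ against total tumour and 0.02 for IL10- against total tumour Treg, where all features had medians of 0.00, 0.03 and 0.01. Scaling to the array median moved it to -0.54 and -0.51 against total tumour Treg, while it moved the median of all features by -0.41 and -0.38. The cause was not tested. No called difference turned its sign.

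With the replicate number as a block, the members called were 27 between tissues and 0 in each of the other 3 comparisons. Deviations of same-numbered IL10+ and IL10- arrays correlated at 0.41, 0.43 and -0.24 across features, and those of differently numbered ones at -0.57 to 0.30. For numbers 1 and 2 the same-numbered value was thus the highest, and for number 3 the lowest. The numbers were not taken to pair the samples, and whether they do is not settled. Scan session as a fixed block and outlier spots kept were added after seeing the data. The number of arrays limits the precision, and dim probes give only bounds.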
